A study of Mus musculus with 16 samples.

Results

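The genes described here carry fatty acids from the blood into the heart muscle cell and through mitochondrial beta-oxidation, together with lipid droplet genes and targets of the nuclear receptor PPAR alpha. They are 34 named genes, found by GENCODE M21 symbol among the 33399 rows of 1 table of raw read counts. The list was not chosen by a measured value, though earlier results of these data were known when it was drawn up. All 34 passed the filter on low counts, which kept 16400 genes of the table. Bulk RNA sequencing had been performed on the ventricles of 16 wild-type C57BL/6 mice from Jackson Laboratories. The groups were 4 female CKD, 4 female control, 4 male CKD and 4 male control samples, where CKD is chronic kidney disease. CKD mice were 8 weeks old at the start and were given standard chow with 0.25% adenine in alternation with unsupplemented standard chow over 6 weeks. Control mice of both sexes, for which the labels give no separate age, ate standard chow alone over the same 6 weeks. Adenine is oxidised to a product that precipitates in kidney tubules, and the feeding aimed at a blood urea nitrogen of 40 to 70 mg/dL with median weight loss held to 20%. No genotype or treatment other than the diet was given, and blood urea nitrogen of individual mice was not used here. Replicate numbers are names only, given in record order. Each sample is counted as 1 mouse, and the labels say nothing further of litters or days, so p-values measure the spread between these samples.

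The adult heart draws most of its energy from long-chain fatty acids. Lipoprotein lipase frees them from blood triglycerides, CD36 and fatty acid binding protein bring them in, and the carnitine shuttle moves them across the mitochondrial membranes, where the beta-oxidation spiral shortens them step by step and passes electrons to the respiratory chain. Fatty acids are also ligands of PPAR alpha, which pairs with the retinoid X receptor on DNA and, with the coactivator PGC-1 alpha, raises transcription of genes of this pathway, most sharply in fasting.

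The libraries held 10203707 to 13626039 counts, and levels below are in CPM, the counts of a gene relative to the library's total after scaling by the trimmed mean of M-values (TMM). The tissue label fitted its markers: the 10 cardiomyocyte markers were present in every library and summed to 34094 to 50551 CPM in CKD and 30878 to 42726 CPM in control libraries. Of 10 white adipocyte markers, adiponectin (Adipoq) and perilipin 1 (Plin1) reached at most 7.26 and 4.24 CPM. Others of them were higher, with Lipe at 20.7 to 71.9 CPM and Thrsp at 21.2 to 39.1 CPM. Summed levels of 5 brown adipocyte markers were 28.6 to 55.6 CPM in CKD and 28.5 to 49.2 CPM in control libraries. Among these, Ucp1 was at 0.0 to 13.2 CPM and was 0 in 6 libraries. Summed levels of 10 fibroblast markers were 255 to 1370 CPM in CKD and 1000 to 1388 CPM in control libraries, and those of 10 endothelial markers were 856 to 1829.9 CPM in CKD and 1359 to 1705 CPM in control libraries. Male CKD 4 had the lowest fibroblast and endothelial sums and the highest cardiomyocyte sum of the 16, and it lay at -80 on the second principal component, where the other male CKD libraries lay between 0.422 and 11.7. Female control 2 lay farthest out on the first component, at 78.1. Female CKD 4 had the highest sums of endothelial and of 10 white adipocyte markers among the 16, at 1829.9 and 841 CPM. Fabp4 counts in both of these sums. Its fibroblast sum was 1370 CPM, against 775 to 847 CPM in the other female CKD libraries. The part of the cell mixture in the values of female CKD 4 was not tested. Sample titles carry a number behind a letter C, which was 6 in 10 libraries, 2 in 3, 3 in 2 and 5 in 1; its meaning is not explained. In bulk tissue fewer cells of a type and less RNA per cell cannot be told apart.

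No gene of the pathway passed the adjusted threshold between CKD and control mice. Of the 9 enzymes of the spiral, 8 varied less between mice of the same group than the median tested gene, with Acads as the exception, whereas Angptl4, Pdk4 and Ucp3 varied several-fold between mice of the same group in both diets. Expressed per kilobase of exon, the heart fatty acid binding protein Fabp3 stood highest, at 2504 ± 438 CPM per kilobase in CKD and 2676 ± 234 in control mice (SD, n = 8 each). Its level may include reads of the processed pseudogene Fabp3-ps1, which shares 37.9% of the 25-base words of Fabp3 and was itself listed at 927 to 1673 CPM. Next in order came the thiolase Acaa2 with 801 ± 189 in CKD and 728 ± 93.2 in control mice, the fatty acid translocase Cd36 with 643 ± 120.1 and 601 ± 127, and long-chain acyl-CoA dehydrogenase Acadl with 542 ± 68.2 and 505 ± 35.1 (CPM per kilobase, SD, n = 8 each, CKD given before control). Lpl, Etfa, Acadm and Hadhb completed the upper 8, with means over all 16 libraries of 462, 428, 368 and 337 CPM per kilobase. Fabp3 stood clear of all others. Neighbours in the order from Acaa2 to Hadhb overlapped within 1 SD in both diets, except that Etfa, at 408 ± 21.9, stood above Acadm, at 345 ± 19.1 CPM per kilobase, in control mice (SD, n = 8 each). Angptl4, a secreted inhibitor of lipoprotein lipase, was lowest at 2.08 ± 2.7 in CKD and 2.67 ± 1.83 CPM per kilobase in control mice (SD, n = 8 each). Divided by the longest transcript in place of all exons, Lpl moved to rank 2 from rank 5 and Fabp3 stayed at rank 1.

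**Figure D1:**
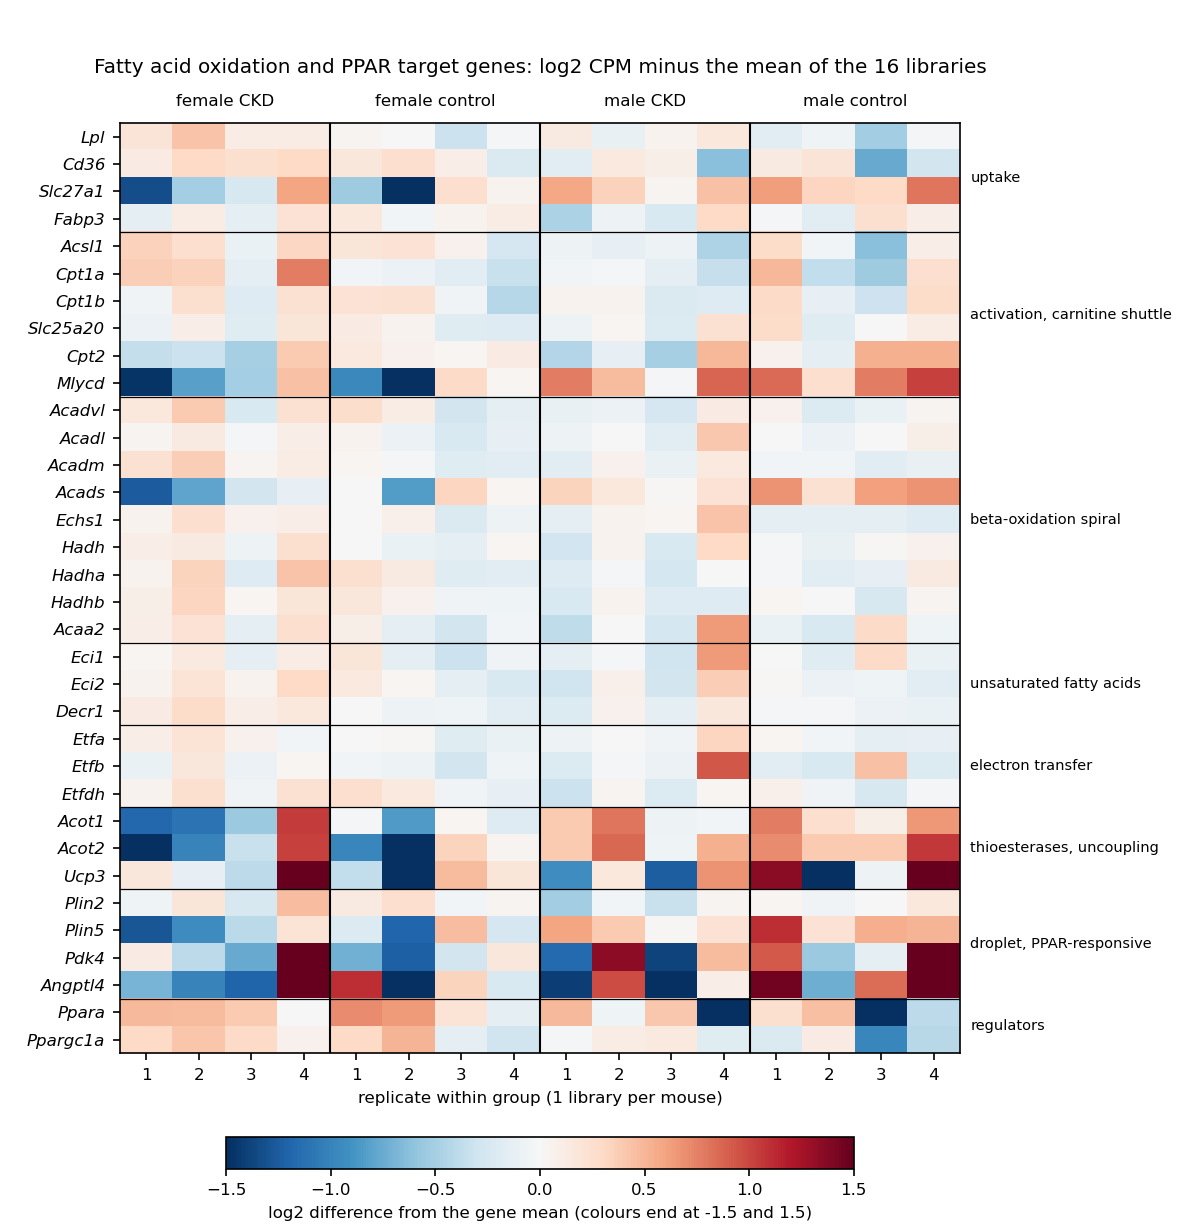
Each cell is the log2 CPM of 1 gene (rows, grouped by role) in 1 library (columns, 4 per group) minus that gene's mean over the 16 libraries; colours end at -1.5 and 1.5. Rows of the beta-oxidation spiral other than Acads and Acaa2 are pale across all 4 groups, while Pdk4, Angptl4 and Ucp3 are deep red in female CKD 4 and male control 4, which held 895 and 651 CPM of Pdk4.

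Regulatory sequence bears on these genes because PPAR alpha and its partner bind a pair of AGGTCA motifs that point the same way with 1 base between them, an arrangement called DR1. Promoters of 29 of the 34 genes were found in a RefSeq table of GRCm38.p6, and Cpt1b, Lpl, Angptl4, Decr1 and Acaa2 were not in it. The window ran from 250 bases before to 50 bases after the start, and both strands were searched. Up to 2 letters of the DR1 pair were allowed to differ, and the middle base could be any. Such a match lay in the windows of 6 of 29 genes (20.7%), namely Cd36, Echs1, Etfa, Plin2, Slc25a20 and Ucp3, against 4.4% of the 27025 genes in the table. An exact DR1 was in 0 of 29 (0.0%) and in 0.0481% of all genes. The single motif AGGTCA, which is contained in DR1, was in 8 of 29 (27.6%) and in 18.1% of all genes. TCAAGGTCA, the motif of estrogen-related receptors, which also contains AGGTCA, was in 0 of 29 (0.0%) and in 0.466% of all genes. A match describes letters and is not a binding site, and its absence says only that these letters are not in this window.

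The bases before the start are printed for 4 genes with a match there, so that the matches can be read in place, and for Pdk4, which had none and was among the genes that varied most between mice. They are the part of the 250 bases before the RefSeq start that lies before the first base of the gene in GENCODE M21, which begins 55 bases earlier in Echs1 and 31 bases earlier in Pdk4. The window of Cd36 lies wholly inside its GENCODE gene and is not printed. Capitals mark the match with up to 2 letters differing.
Ucp3, chr7:100472741-100472989, + strand: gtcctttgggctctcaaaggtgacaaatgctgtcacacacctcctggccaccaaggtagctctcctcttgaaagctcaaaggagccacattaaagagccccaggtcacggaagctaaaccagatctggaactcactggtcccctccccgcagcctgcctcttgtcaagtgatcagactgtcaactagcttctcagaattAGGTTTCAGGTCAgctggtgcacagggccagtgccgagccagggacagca
Plin2, chr4:86670061-86670309, - strand: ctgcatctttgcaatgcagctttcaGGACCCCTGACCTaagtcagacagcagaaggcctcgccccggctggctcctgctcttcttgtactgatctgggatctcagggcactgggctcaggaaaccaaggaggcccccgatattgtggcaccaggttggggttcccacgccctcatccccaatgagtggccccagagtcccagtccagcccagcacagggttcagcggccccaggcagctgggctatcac
Echs1, chr7:140116477-140116671, - strand: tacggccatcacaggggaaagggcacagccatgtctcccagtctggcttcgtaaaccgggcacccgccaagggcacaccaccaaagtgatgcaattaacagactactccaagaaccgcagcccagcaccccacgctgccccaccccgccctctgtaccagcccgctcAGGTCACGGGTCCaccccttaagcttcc
Etfa, chr9:55512244-55512493, - strand: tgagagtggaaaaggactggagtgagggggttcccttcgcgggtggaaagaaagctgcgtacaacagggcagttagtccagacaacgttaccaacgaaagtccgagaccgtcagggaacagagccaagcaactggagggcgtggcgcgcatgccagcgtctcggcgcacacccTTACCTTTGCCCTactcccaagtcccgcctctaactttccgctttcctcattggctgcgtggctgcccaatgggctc
Pdk4, chr6:5496310-5496528, - strand: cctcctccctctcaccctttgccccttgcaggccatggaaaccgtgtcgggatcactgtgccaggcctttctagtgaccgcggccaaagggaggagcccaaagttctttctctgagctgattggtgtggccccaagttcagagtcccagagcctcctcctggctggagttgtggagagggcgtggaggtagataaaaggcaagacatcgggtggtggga
The match in Ucp3 lay 51 to 39 bases before the RefSeq start and reads in the direction of the gene, as does that of Echs1, 83 to 71 bases before it. Those of Plin2, 225 to 213 bases before the start, and Etfa, 77 to 65 bases before it, read on the opposite strand. The 4 genes with a printed match did not share a pattern of spread: Ucp3 had an SD of log2 CPM within groups of 1.06, against 0.214 for Plin2, 0.144 for Echs1 and 0.121 for Etfa.

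The first comparison asked how ventricular transcripts of fatty acid use differed between CKD and control mice, over both sexes with sex as a covariate. By edgeR's quasi-likelihood test with Benjamini-Hochberg adjustment 0 of 34 genes passed an adjusted p of 0.05, where 0.0854% of the 16400 genes tested did. Nor did any pass in DESeq2 or in limma-voom with sample quality weights, which called 2.43% and 1.21% of all genes. At an unadjusted p under 0.05 edgeR's test found 4 of 34 (11.8%), beside 15.4% of all genes. The fitted log2 fold change was positive in 22 genes and negative in 12, with a median of 0.05, while 50.2% of all genes were positive and their median was 0.002. With limma-voom 14 were positive and 20 negative, among the 10 libraries with title number 6 alone 12 were positive, and without female CKD 4 there were 17. The 95% intervals of 21 genes lay within 0.5 on the log2 scale of no change (1.41-fold in either direction). The other 13 genes, among them Pdk4, Ucp3, Angptl4, Ppara, Ppargc1a, Cpt1a and Cpt2, had intervals that reach past it.

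**Figure D2:**
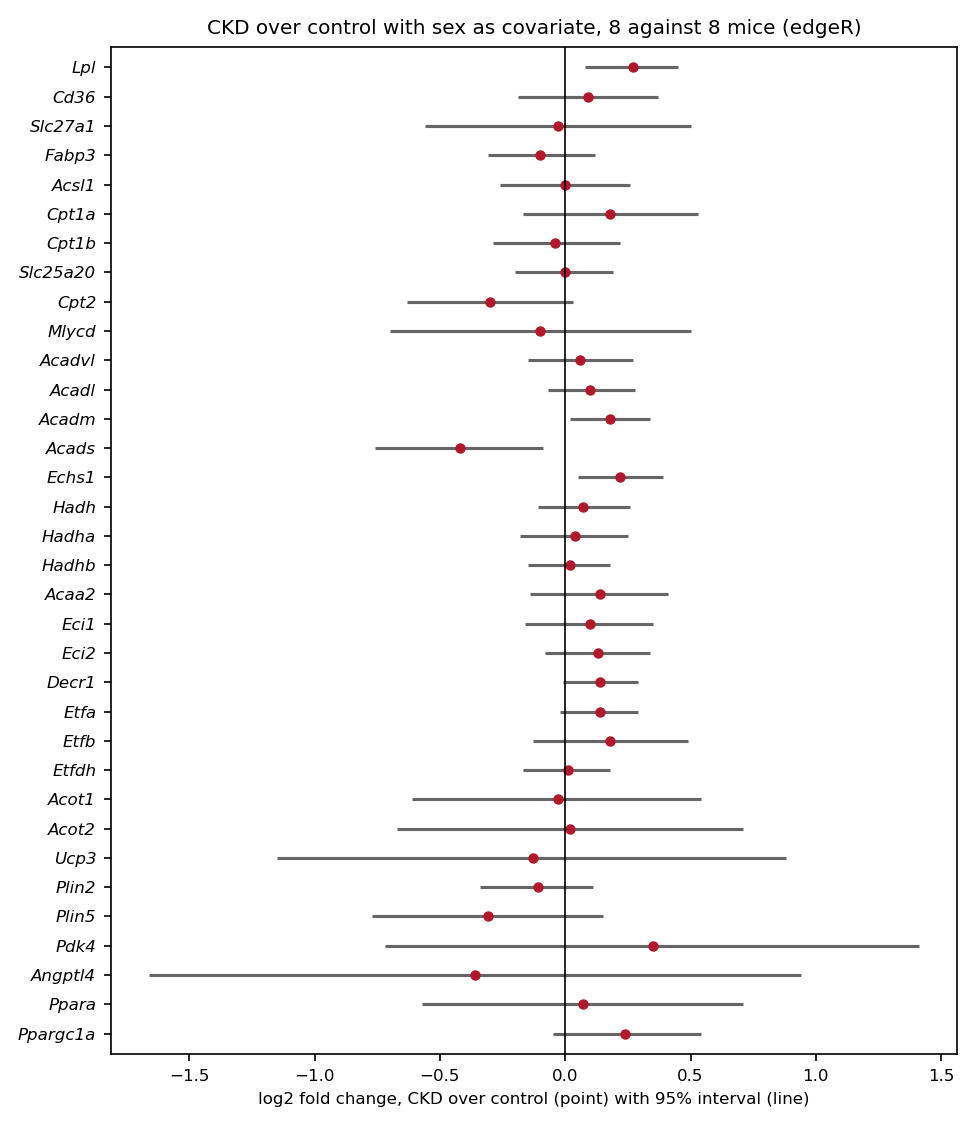
Points are log2 fold changes of CKD over control (8 against 8 mice, sex as covariate, edgeR) and lines their 95% intervals, with genes in order of role down the page. Intervals of the spiral enzymes are short and lie near 0, from 0.02 for Hadhb to 0.22 for Echs1 and with Acads at -0.42, whereas those of Angptl4, Pdk4 and Ucp3 span more than 2 log2 units.

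Among uptake genes, Lpl, the enzyme that releases fatty acids from circulating triglycerides, had the lowest p of the list. It measured 5502, 6421, 5167 and 5189 CPM in the female CKD mice, against 4920, 4791, 3841 and 4723 CPM in the female controls. Male CKD mice had 5247, 4449, 4988 and 5356 CPM, against 4276, 4576, 3337 and 4695 CPM in controls. All 4 CKD females lay above every female control, and 7 of the 8 CKD mice lay above the highest control of either sex. Here and for the genes below, the share of all genes whose diet groups separate in this way was not counted. The log2 fold change was 0.27 (SE 0.09, unadjusted p = 0.00735, adjusted p = 0.165 in edgeR's test), and it ran from 0.21 to 0.29 with single libraries left out. With the title number as a factor it was 0.31 (edgeR adjusted p = 0.0729). Lpl is also made by fat cells, and the summed level of 10 white adipocyte markers was 421 to 841 CPM in CKD and 486 to 638 CPM in control libraries. Most of that sum was Fabp4, at 324 to 724 CPM, which endothelial cells also express. Adipoq, Plin1, Cidec, Lep and Retn were at 0.0 to 7.26 CPM in every library. Lipe and Thrsp were higher, at 20.7 to 71.9 and 21.2 to 39.1 CPM, and Cfd and Pck1 exceeded 7.26 CPM in their highest library. Whether fat cells contribute to the Lpl values was not tested.

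The other uptake genes differed less. Cd36 averaged 2309 ± 431 CPM in CKD and 2159 ± 455 CPM in control mice, and Fabp3 averaged 2061 ± 361 CPM in CKD and 2202 ± 193 CPM in control mice (SD, n = 8 each). Their log2 fold changes were 0.09 (SE 0.13) and -0.10 (SE 0.10). Slc27a1, which encodes the fatty acid transport protein FATP1, had 138 ± 51.4 CPM in CKD and 144 ± 58.8 CPM in control mice (SD, n = 8 each) and a 95% interval of -0.56 to 0.50. All 3 groups of values overlapped between the diets.

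Fatty acids are activated by the acyl-CoA synthetase Acsl1 and pass into the mitochondrion through carnitine palmitoyltransferase 1 (Cpt1a and Cpt1b), the carrier Slc25a20 and carnitine palmitoyltransferase 2 (Cpt2). Acsl1 and Slc25a20 had log2 fold changes that rounded to 0.00, with 95% intervals of -0.26 to 0.26 and -0.20 to 0.19. Cpt2 was at 159.7, 199, 154 and 307 CPM in male CKD mice, against 226, 197, 313 and 314 CPM in male controls. In females it was at 169.9, 174, 153 and 284 CPM with CKD, against 241, 227, 221 and 236 CPM in controls. Of the 8 CKD mice, 5 lay below the lowest control, while male CKD 2, male CKD 4 and female CKD 4 lay within the range of the controls. The fitted value was -0.30 (SE 0.16, unadjusted p = 0.0714, edgeR adjusted p = 0.366), and limma-voom, which gives less weight to discordant libraries, had -0.45 with an adjusted p of 0.0712.

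The muscle form Cpt1b averaged 33.9 ± 4.39 CPM in CKD and 34.7 ± 6.47 CPM in control mice (SD, n = 8 each). On the same strand 81.4% of its exon bases are shared with Gm44502, a neighbouring read-through transcript without a row in the counts table. The values of Cpt1b may therefore hold reads of Gm44502, or may lack reads that fit both genes. How its level compares with that of Cpt1a is uncertain for that reason. The liver form Cpt1a was at 92.6, 91.1, 64.6 and 122 CPM in female CKD mice, against 69.5, 67.6, 63.8 and 56.8 CPM in female controls. The male CKD values were 69.9, 71, 64.9 and 56.4 CPM, against 101, 55.7, 49.6 and 85.3 CPM in controls. In females 3 of 4 CKD mice lay above all controls, whereas in males the CKD values lay inside the range of the controls. Mlycd, malonyl-CoA decarboxylase, which removes the natural inhibitor of carnitine palmitoyltransferase 1, averaged 81.6 ± 39.5 CPM in CKD and 89.4 ± 45.7 CPM in control mice (SD, n = 8 each), and its ranges overlapped.

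In the spiral itself 8 of 9 genes had positive values and 1 a negative one, from -0.42 to 0.22 with a median of 0.07; none passed the adjusted threshold. Echs1, the short-chain enoyl-CoA hydratase of the second step, measured 541, 619, 543 and 559 CPM in female CKD mice, against 519, 550.3, 449 and 493 CPM in female controls. In males it measured 472, 540.3, 531 and 703 CPM with CKD, against 472, 469, 474 and 455 CPM in controls. The male controls lay close together, between 455 and 474 CPM, and 3 of the 8 CKD mice lay above every control. The log2 fold change was 0.22 (SE 0.08, unadjusted p = 0.0154, edgeR adjusted p = 0.213). Male CKD 4, the library with the lowest fibroblast sum, was the highest, and without it the value was 0.15.

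Acadm, medium-chain acyl-CoA dehydrogenase, was at 1671, 1842, 1469 and 1544 CPM in female CKD mice, against 1463, 1412, 1263 and 1281 CPM in female controls. Male CKD mice had 1283, 1499, 1333 and 1584 CPM, against 1393, 1385, 1271 and 1326 CPM in controls. The female groups did not overlap, with 1469 CPM as the lowest CKD value and 1463 CPM as the highest control value, while the male groups did overlap. How often female groups separate among all genes was not counted. Over both sexes the log2 fold change was 0.18 (SE 0.08, unadjusted p = 0.0315, edgeR adjusted p = 0.275).

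Acads, short-chain acyl-CoA dehydrogenase, was the member of the spiral with a negative value. It was at 66.9, 92.3, 132 and 146 CPM in female CKD mice, against 158, 89.1, 199 and 163 CPM in female controls. The male CKD values were 201, 178, 161 and 185 CPM, against 253, 187, 244 and 254 CPM in controls. The groups overlapped in both sexes, and 7 of 8 CKD mice lay below the control median of 193 CPM. The log2 fold change was -0.42 (SE 0.16, unadjusted p = 0.0171, edgeR adjusted p = 0.222), and it was -0.30 (SE 0.09) after trends over GC content were removed from each library.

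The remaining dehydrogenases, hydratases and thiolases were close to level. Acadl averaged 1086 ± 137 CPM in CKD and 1012 ± 70.4 CPM in control mice, and Hadhb, the thiolase subunit of the trifunctional protein, averaged 2242 ± 312 CPM in CKD and 2206 ± 178 CPM in control mice (SD, n = 8 each). Log2 fold changes were 0.10 for Acadl, 0.02 for Hadhb, 0.04 for its partner Hadha, 0.06 for very long-chain dehydrogenase Acadvl, 0.07 for the hydroxyacyl-CoA dehydrogenase Hadh and 0.14 for Acaa2, with standard errors of 0.08 to 0.13. Without male CKD 4 the values of Acadl and Acaa2 were 0.04 and 0.02. On the opposite strand Dvl2 covers 42.9% of the exon bases of Acadvl and was listed at 2.1 to 8.48 CPM, far below Acadvl at 551 to 876 CPM.

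Unsaturated chains need the isomerases Eci1 and Eci2 and the reductase Decr1. Decr1 was at 682, 759.9, 671 and 697 CPM in female CKD mice, against 626, 593, 597 and 561 CPM in female controls, and these groups did not overlap. In males it was at 544, 654, 569.9 and 702 CPM with CKD, against 620.3, 614, 589 and 584 CPM in controls, and the CKD mice spread to both sides of the controls. The value over both sexes was 0.14 (SE 0.07, edgeR adjusted p = 0.364). Eci1 and Eci2 had 0.10 (SE 0.12) and 0.13 (SE 0.10), and -0.01 and 0.06 without male CKD 4.

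Electrons from the dehydrogenases pass through the flavoprotein subunits Etfa and Etfb to Etfdh, which hands them to ubiquinone. Etfa averaged 823 ± 82.3 CPM in CKD and 749 ± 40.2 CPM in control mice (SD, n = 8 each; log2 fold change 0.14, SE 0.07, edgeR adjusted p = 0.387). The highest control, at 800.1 CPM, was exceeded in 4 CKD mice. Etfb and Etfdh had 0.18 (SE 0.15) and 0.01 (SE 0.08). Without male CKD 4 the values of Etfa and Etfb were 0.09 and 0.02. Male CKD 4 was highest of the 16 libraries in both Etfa and Etfb, at 979 and 324 CPM, and it was the library with the fewest fibroblast and endothelial marker counts; the part of the cell mixture in these values was not tested.

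**Figure D3:**
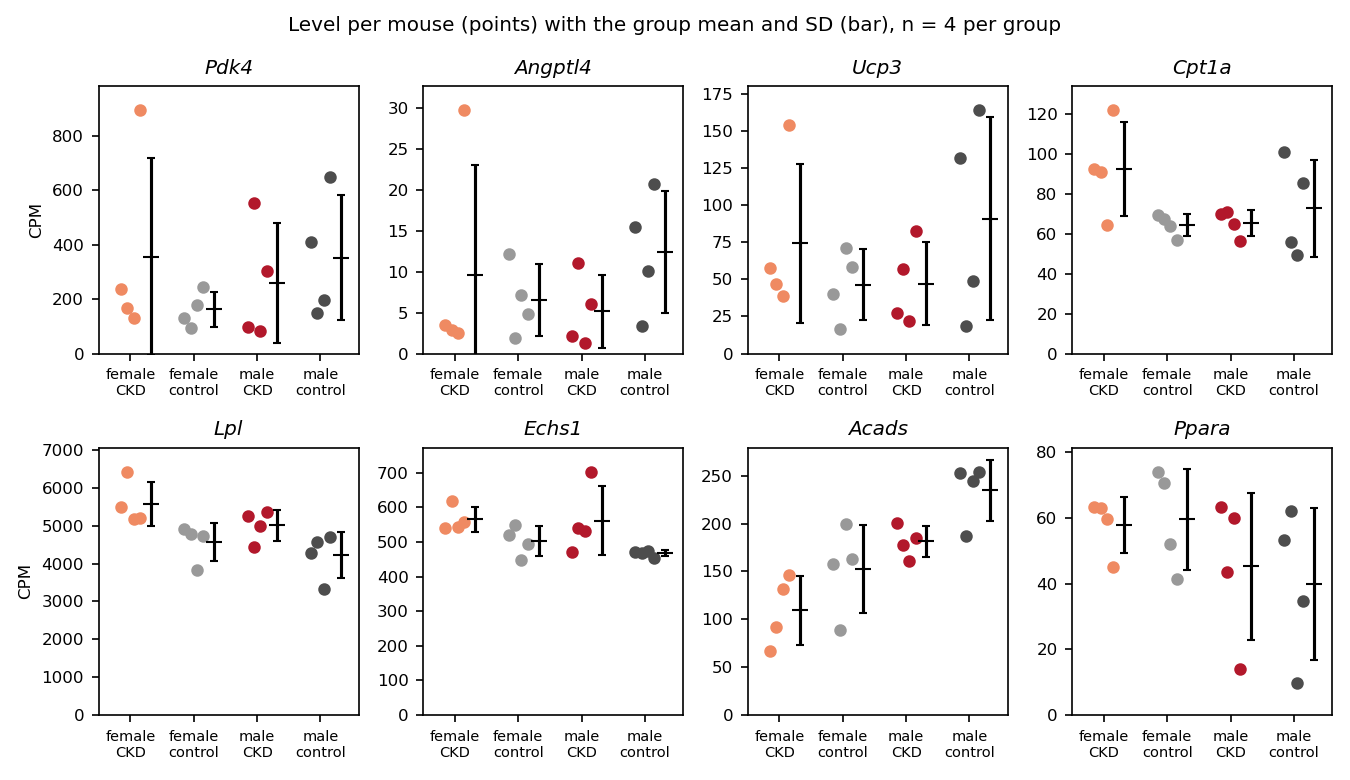
CPM of 8 genes in each mouse (points) with the mean and SD of each group of 4 (bar; a lower end below 0 is cut at the axis). In Pdk4, Angptl4 and Ucp3 female CKD 4 stands far above the other female CKD mice, and values spread widely in both male groups. In contrast, Lpl and Echs1 values lie close together.

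Of the known targets of PPAR alpha in the list, Angptl4, Pdk4 and Ucp3 varied most between mice, while Plin2, another such target, varied less than the median tested gene. Pdk4, the kinase that shuts off pyruvate dehydrogenase when fat is burned, was at 237, 166, 129.6 and 895 CPM in female CKD mice, against 132, 93.2, 180.1 and 245 CPM in female controls. Male CKD mice had 97.2, 555, 83.5 and 302 CPM, against 412, 148, 197 and 651 CPM in controls. High values occurred in both diets: the highest library was female CKD 4, followed by male control 4 and male CKD 2. Female CKD 4 and male control 4 both carry title number 2, as does female control 4, at 245 CPM. The ratio of the highest to the lowest mouse was 10.7, and the fitted CKD effect was 0.35 (SE 0.51, 95% interval -0.72 to 1.41, edgeR adjusted p = 0.762). Without female CKD 4 it was -0.18, and with the title number as a factor 0.08.

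Angptl4 was at 3.48, 2.83, 2.45 and 29.7 CPM in female CKD mice, against 12.2, 1.84, 7.13 and 4.83 CPM in female controls. The male CKD values were 2.13, 11.1, 1.25 and 6.06 CPM, against 15.4, 3.39, 10.1 and 20.7 CPM in controls. The highest mouse was 23.7 times the lowest, female CKD 4 was again the highest and male control 4 the next. The fitted value was -0.36 (SE 0.62, edgeR adjusted p = 0.799) with female CKD 4 and -1.22 without it (unadjusted p = 0.0168, edgeR adjusted p = 0.183). With the title number as a factor it was -0.91 (edgeR adjusted p = 0.378), and among the 10 libraries with title number 6 alone -1.74 (unadjusted p = 0.00847, edgeR adjusted p = 0.23).

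Ucp3, the muscle uncoupling protein, was at 57.7, 47.1, 39.1 and 154 CPM in female CKD mice, against 39.8, 16.6, 71.4 and 58.3 CPM in female controls. In males it was at 27, 57.3, 21.9 and 82.4 CPM with CKD, against 132, 18.3, 48.9 and 164 CPM in controls. Male control 4, female CKD 4 and male control 1 held the highest values, and the CKD range lay inside the control range (log2 fold change -0.13, SE 0.48, edgeR adjusted p = 0.904). The acyl-CoA thioesterases Acot1, of the cytosol, and Acot2, of the mitochondrion, share 21.4% and 32.6% of their 25-base words with each other, so their counts may be exchanged in part. Acot1 had 26.4 ± 14.5 CPM in CKD and 27.4 ± 9.08 CPM in control mice, and Acot2 had 57.2 ± 30.4 CPM in CKD and 58.7 ± 28.8 CPM in control mice (SD, n = 8 each). Female CKD 4 held the highest Acot1 value, 50.6 CPM, against 10.8 to 16.6 CPM in the other female CKD mice.

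The droplet coat proteins Plin2 and Plin5 were less variable than Ucp3, Acot1 and Acot2, with SDs of log2 CPM within groups of 0.214 and 0.519. Plin5 still lay at the 81.7 percentile of all tested genes, and Plin2 at the 25.8 percentile. Plin2 averaged 54.5 ± 11.9 CPM in CKD and 58.6 ± 4.37 CPM in control mice (SD, n = 8 each), with a log2 fold change of -0.11 (SE 0.11); 4 of 8 CKD mice lay below the lowest control and 1 above the highest. Plin5 averaged 100.4 ± 39.4 CPM in CKD and 125 ± 53.3 CPM in control mice (SD, n = 8 each), with -0.31 (SE 0.22, edgeR adjusted p = 0.506).

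Of the regulators, Ppara itself was at 63.3, 63, 59.7 and 45.1 CPM in female CKD mice, against 74, 70.6, 52.1 and 41.3 CPM in female controls. Male CKD mice had 63.3, 43.4, 60 and 14.1 CPM, against 53.3, 62.1, 9.81 and 34.6 CPM in controls. A single library in each male group, male CKD 4 and male control 3, lay far below all others, and the fitted value was 0.07 (SE 0.30, edgeR adjusted p = 0.926). Ppargc1a, which encodes PGC-1 alpha, averaged 180.1 ± 23.5 CPM in CKD and 153 ± 46.7 CPM in control mice (SD, n = 8 each), and 7 of 8 CKD mice lay above the control median of 144 CPM. Its log2 fold change was 0.24 (SE 0.14, edgeR adjusted p = 0.42).

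The spread between mice of the same group divided the list. As the SD of log2 CPM within the 4 groups, it was 1.33 for Angptl4, 1.07 for Pdk4 and 1.06 for Ucp3, which put them at the 99.9, 99.4 and 99.3 percentile of the 16400 genes. Ppara, Acot2 and Mlycd, with 0.814, 0.779 and 0.702, also lay above the 90 percentile. At the other end Decr1 had 0.102, Acadm 0.118, Etfa 0.121 and Hadhb 0.125, between the 0.695 and the 2.52 percentile. In all, 19 of 34 genes lay below the median of all tested genes, 0.298, and the median of the list was 0.261. The tight genes were mostly those of high level. Level and spread did not always go together, since Plin2, at 498 to 831 counts per library, had 0.214 and Pdk4, at 934 to 9677 counts, had 1.07. The part of counting error in the spread was not tested.

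**Figure D4:**
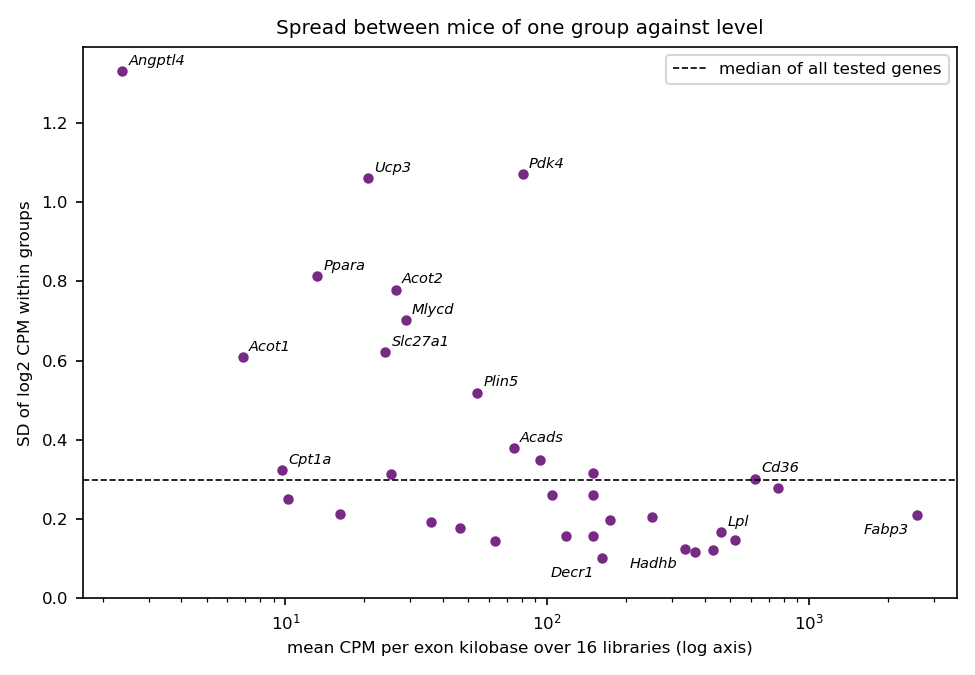
Each point is 1 of the 34 genes, by its mean CPM per exon kilobase over 16 libraries (log axis) and by the SD of log2 CPM within the 4 groups; the dashed line is the median of all tested genes, 0.298. Angptl4, Ucp3 and Pdk4 lie above 1, and the 9 spiral enzymes lie between 0.118 for Acadm and 0.379 for Acads.

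Both libraries with title number 3, male CKD 4 and male control 3, shared a pattern that crossed the diets. Ppara was at 14.1 and 9.81 CPM in them and at 34.6 to 74 CPM in the other 14. Etfb was at 324 and 231 CPM in them and at 141 to 191 CPM in the others. Beside Ppara, Cd36 and Acsl1 lay below the range of the other 14 in both, and beside Etfb, Fabp3, Acaa2 and Eci1 lay above it. These 7 of 34 genes are a share close to the 17.2% of all genes that lay outside that range in both libraries. The pattern is therefore not particular to this list. In Etfb 58.2% of the exon bases are shared on the same strand with Gm45233, listed at 0.0 to 0.163 CPM, and Mir7051. Atrial markers summed to 759.9 CPM in male CKD 4 and 921 CPM in male control 3, and to 183 to 801 CPM in the other 14, and the title number is not explained, so their parts in this pattern were not tested.

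CKD was next compared with control within each sex. In females 0 of 34 genes passed the adjusted threshold, as did 0.0549% of all genes in edgeR's test; DESeq2 and limma-voom called 0.195% and 0.335% of all genes and none of the list. At an unadjusted p under 0.05 there were 4 of 34 (11.8%), beside 8.34% of all genes: Acadm at 0.27, Cpt1a at 0.52, Decr1 at 0.24 and Lpl at 0.29 (log2 fold change), with edgeR adjusted p of 0.508, 0.514, 0.524 and 0.581. Values were positive in 28 genes and negative in 6, with a median of 0.15 beside -0.005 over all genes. Without female CKD 4 they were positive in 22 genes, with a median of 0.10, and with only title number 6 in 19 genes, with a median of 0.04. That library also fixed the values of the variable genes: without it the female log2 fold change was 0.13 in place of 1.13 for Pdk4, -1.16 in place of 0.55 for Angptl4 and 0.05 in place of 0.68 for Ucp3. For Cpt1a it was 0.36 in place of 0.52.

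In males 0 of 34 genes passed the adjusted threshold, and 0.0% of all genes did in edgeR's test, 0.0732% in DESeq2 and 0.0% in limma-voom, neither of which called a gene of the list. At an unadjusted p under 0.05 there was 1 of 34 (2.94%), beside 6.88% of all genes, namely Echs1 at 0.27 (SE 0.12, edgeR adjusted p = 0.722) and at 0.16 without male CKD 4. Values were positive in 13 genes and negative in 21, with a median of -0.07 beside 0.007 over all genes. Positive values were fewer with only title number 6 (5 genes, median -0.18), without male CKD 4 and female control 2 (7 genes, median -0.10) and in limma-voom (8 genes, median -0.14).

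The difference between these effects, in females minus in males, was tested by the interaction. No gene of the list passed the adjusted threshold, nor did any of the 16400 genes in edgeR (0.0%), DESeq2 (0.0%) or limma-voom (0.0%). At an unadjusted p under 0.05 there was 1 of 34 (2.94%), beside 1.68% of all genes. It was Cpt1a, at 0.68 (SE 0.30, unadjusted p = 0.0369, edgeR adjusted p = 1.0), and the value ran from 0.47 to 0.82 with single libraries left out, at unadjusted p of 0.00942 to 0.124. Pdk4 had 1.58 (95% interval -0.41 to 3.56), Ucp3 1.62 (-0.24 to 3.48) and Angptl4 1.82 (-0.64 to 4.28), intervals that hold both no difference and large ones. Without female CKD 4 these values were 0.57, 0.99 and 0.11.

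Sex, the other labelled factor, was compared over both diets. By edgeR's test 0 of 34 genes passed the adjusted threshold, beside 0.171% of all genes. DESeq2 called 3 of 34 (8.82%), all lower in females, namely Acads, Mlycd and Plin5, beside 8.82% of all genes. Limma-voom called 6 of 34 (17.6%), all lower in females, with Acot1, Acot2 and Slc27a1 in addition, beside 16.6% of all genes. Lower values in females also prevailed over all genes called. DESeq2 called 1089 genes lower and 357 higher, and limma-voom called 2128 lower and 589 higher. At an unadjusted p under 0.05 edgeR's test found 8 of 34 (23.5%), beside 25.2% of all genes. The share of the list was near that of all genes in each tool. With single libraries left out of edgeR's test, Acads, Mlycd and Plin5 passed the adjusted threshold without female control 3, at log2 fold changes of -0.76, -1.23 and -0.96, and Acads alone passed without male control 2, at -0.73.

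Mlycd was at 26.5, 41.8, 51.7 and 99.6 CPM in CKD females and 37.6, 18.4, 89.9 and 75.1 CPM in control females, against 125, 102, 72.4 and 134 CPM in CKD males and 132, 87.5, 125 and 149 CPM in control males. Of the 8 females, 5 lay below the lowest male. The log2 fold change was -1.07 (SE 0.29, edgeR adjusted p = 0.0665). Acads had -0.68 (SE 0.16, edgeR adjusted p = 0.0632), with 6 of 8 females below the lowest male, and Plin5 had -0.82 (SE 0.22, edgeR adjusted p = 0.0665), also with 6 of 8. For Mlycd, Acads and Plin5 alike, the share of all genes whose sexes separate in this way was not counted. Slc27a1 and Acot2 had -0.71 (SE 0.25) and -0.82 (SE 0.33). In the other direction Cd36 had 0.28, Hadhb 0.19 and Ppargc1a 0.35, with edgeR adjusted p of 0.197, 0.159 and 0.138.

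The lower genes in females were mostly those of high GC content. Mlycd has 59.3%, Acads 59.7%, Plin5 58.6% and Slc27a1 56.9% GC in the longest transcript, where the median of the list is 51.2%. Across the 34 genes the Spearman correlation of GC content with the sex difference was -0.583, and across all tested genes it was -0.599; this is a description across genes, which are not independent replicates and share the same 16 libraries. The rank correlation of each library's levels with GC content, relative to the mean library, ran from -0.492 to 0.145 in females and from 0.00958 to 0.548 in males. Removing such trends from each library takes this correlation towards 0 by construction, and it was then 0.0081 across the list. Mlycd was in that fit at -0.63 (SE 0.16, edgeR adjusted p = 0.109), Plin5 at -0.38, Slc27a1 at -0.41 and Acads at -0.10, while Acot1 and Acot2, at 46.9% and 53.7% GC, were at -0.63 and -0.71. With 1 surrogate variable in the model in place of that step, the sex differences were -0.33 for Mlycd, -0.28 for Plin5, -0.25 for Acads, -0.01 for Slc27a1, -0.06 for Acot1 and -0.04 for Acot2. That variable itself differed between the sexes, at 0.04972 to 0.279 in males and -0.6357 to 0.1806 in females. It can therefore take up part of a sex difference, and this fit cannot tell the 2 apart.

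**Figure D5:**
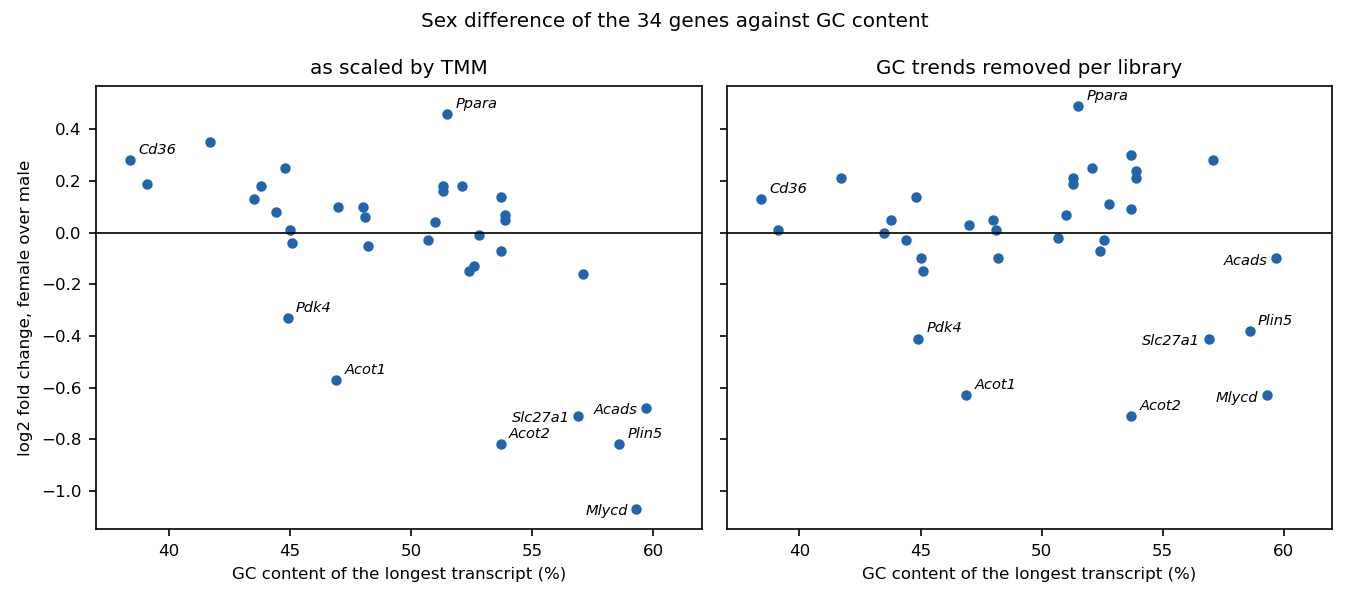
Log2 fold change of females over males against the GC content of the longest transcript for the 34 genes, as scaled by TMM (left) and with trends over GC content removed from each library (right). On the left the points fall towards high GC content, down to Mlycd at -1.07, and on the right Acads lies near 0 at -0.10 while Acot1, Acot2 and Mlycd stay below -0.6.

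Around the 34 genes, 9 lists of neighbouring pathways held 121 genes, of which 112 passed the filter on low counts. Between CKD and control mice none of the 112 passed the adjusted threshold of edgeR's test, and 18 (16.1%) had an unadjusted p under 0.05, 8 higher and 10 lower in CKD, beside 15.4% of all genes. Values were positive in 58 and negative in 54, with a median of 0.02. DESeq2 called Fabp5 and Abcd2, and limma-voom called Fitm2 and Abcd2.

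Fabp5, a binding protein common in endothelium and macrophages, had the lowest p of these lists, with 34 ± 8.59 CPM in CKD and 49.8 ± 10.4 CPM in control mice (SD, n = 8 each; log2 fold change -0.55, SE 0.14, edgeR adjusted p = 0.0946). Endothelial markers had negative values in 8 of 10, with a median of -0.28, and DESeq2 called 2 of them and limma-voom 1. Macrophage markers had negative values in 9 of 10, with a median of -0.13, and DESeq2 called 1 of them. The part of these cells in the Fabp5 values was not tested. In the same list the acyl-CoA synthetase Acsl6 had 0.32. Among peroxisomal genes the transporter Abcd2 had 0.44 (edgeR adjusted p = 0.123) and the reductase Decr2 -0.35 (edgeR adjusted p = 0.134). The lactate and ketone transporter Slc16a1 had 469 ± 63.7 CPM in CKD and 359 ± 86.3 CPM in control mice (SD, n = 8 each; 0.39, SE 0.12, edgeR adjusted p = 0.133), and Oxct1, which activates ketone bodies for oxidation, had 0.10.

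Of other oxidation enzymes, Acadsb, for branched short chains, and Hsd17b10, a mitochondrial hydroxyacyl-CoA dehydrogenase, had 0.32 and 0.28. In lipolysis and droplets, the monoglyceride lipase Mgll had -0.58 (SE 0.22) and the phosphatidate phosphatase Lpin1 -0.28, and of other PPAR targets the droplet protein Fitm2 had -0.27 and the peroxisomal thioesterase Acot6 0.35. Carnitine acetyltransferase Crat had -0.26 and Aldh9a1, of carnitine synthesis, 0.16. ATP citrate lyase (Acly) had -0.26 and Mcat -0.10, with 4 of the 4 genes of malonyl-CoA metabolism negative. Of 24 receptors and cofactors 9 were positive and 15 negative, and the lowest p belonged to Gabpa at 0.21 and Sirt1 at 0.15. Fibroblast markers had negative values in 10 of 10, with a median of -0.44. Of these, 0 passed the adjusted threshold in edgeR's test, DESeq2 or limma-voom, though 5 had an unadjusted p under 0.05 in edgeR's test. Cardiomyocyte markers had positive values in 8 of 10, with a median of 0.07, and DESeq2 called 1 of them.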

How the data were processed

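RNA from mouse ventricles was sequenced as 50 bp paired-end reads, per the labels' protocols. The authors deposited whole-number counts per gene with no normalization. The genome build mm10 and the tools STAR 2.6.1d, Subread 1.6.3 with featureCounts, DESeq2 1.30.1, MultiQC and FastQC are named in the submitters' processing notes. Not given in the sources used here are the annotation release, the strand setting and how multi-mapping reads were counted. Genes that share sequence or overlap may therefore exchange or lose counts. Of 33399 identifiers 33367 matched GENCODE M21, 32027 with the same version.

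From these counts edgeR 4.0.16 in R 4.3.3 kept 16400 genes by filterByExpr (minimum count 10, minimum total 15), scaled libraries by TMM and fitted quasi-likelihood models with all 16 libraries. Totals of 10203707 to 13626039 counts left the spread between mice as the limit on precision (common biological coefficient of variation 0.225). CKD was compared with control with sex as a covariate, within each sex and between the sexes by contrasts of a 4-group model, and females with males with diet as a covariate. P-values are two-sided and adjusted by Benjamini-Hochberg over all 16400 genes, with a threshold of 0.05; standard errors are the log2 fold change divided by the square root of F. CPM is given as mean ± SD over mice.

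Alternatives were DESeq2 1.42.0, limma-voom with quality weights (limma 3.58.1), RLE and upper-quartile scaling, no filter, a filter of 1 CPM in 8 libraries, mitochondrially encoded genes left out, the title number as a factor or only number 6, 1 surrogate variable (sva 3.50.0), per-library GC trends removed (lowess, span 0.3), no sex term, male CKD 4 and female control 2 left out together, and each library left out in turn. The fitting code was run on simulated counts with planted changes, without a sex effect, GC trend or outlying library. No statement here rests on that run. The chi-square per degree of freedom over the 120 pairs of libraries was 7.17 to 69.4, above sampling noise in each pair.

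The 34 genes, the pathway and marker lists and the tests were chosen with earlier results of these data known. All 34 genes were named; values in every mouse were given for those with an unadjusted p under 0.05 between CKD and control and for a fixed set with Ppara, Pdk4, Ucp3, Angptl4 and Cpt1a, and from each pathway list genes past the adjusted threshold or otherwise the pair with the lowest p. Cpt2, Decr1, Mlycd and Etfa were given in more detail after their values were seen. Promoter sequences came from RefSeq on GRCm38.p6.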

Additional observations from a re-analysis of the deposited data

Results flagged for a closer look

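In each group of 4 mice the gap between the highest or lowest value and its nearest neighbour was divided by the range of the group and set against Dixon's critical value. Of 136 gene and group combinations 11 passed, where chance gives about 1 in 20, or 6.8. Female CKD 4 accounted for 5 of the 11, being above the other female CKD mice in Pdk4 (895 CPM, others 129.6 to 237), Angptl4 (29.7 CPM, others 2.45 to 3.48), Ucp3 (154 CPM, others 39.1 to 57.7), Acot1 (50.6 CPM, others 10.8 to 16.6) and Cpt2 (284 CPM, others 153 to 174). Male CKD 4 stood above the other male CKD mice in Etfa (979 CPM, others 745 to 781) and Etfb (324 CPM, others 148 to 167) and below them in Acsl1 (778 CPM, others 985 to 1021). Male control 3 stood above its group in Etfb (231 CPM, others 145 to 151), male control 2 below its group in Acads (187 CPM, others 244 to 254) and male CKD 2 above its group in Hadhb (2285 CPM, others 1883 to 1940.3).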

How the results depend on the processing

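Between CKD and control mice, within either sex and in the interaction, 0 of 34 genes were called under every alternative tried. The median log2 fold change of the list ran from -0.058 to 0.078 over both sexes, -0.181 to -0.028 in males, 0.044 to 0.18 in females, 0.074 to 0.213 for the interaction and 0.004 to 0.129 for sex. Of 34 genes 15 kept 1 sign for CKD in all 29 alternatives, 19 for the interaction and 16 for sex. For sex the list's count was 3 in DESeq2, 6 in limma-voom and 3 with no filter, and 0 to 3 with single libraries left out (1 without male control 2, 3 without female control 3, 0 otherwise). Counts over all genes moved more. For CKD in all mice they were 398 in DESeq2, 199 in limma-voom, 53 with no filter, 234 with the title number as a factor, 8 with only number 6, 72 with 1 surrogate variable, 22 with GC trends removed, 22 without both libraries that stand apart, and 6 to 43 with single libraries left out. In males they were 12 in DESeq2, 1 with no filter and 0 to 1 with single libraries left out. In females they were 32 in DESeq2, 55 in limma-voom, 3 with only number 6 and 0 to 13 with single libraries left out. For sex they were 1446 in DESeq2, 2717 in limma-voom, 48 with upper-quartile scaling, 616 with no filter, 15 with the title number as a factor, 16 with only number 6, 7 with 1 surrogate variable, 11 with GC trends removed and 8 to 1461 with single libraries left out. The causes were not tested. No paired analysis was possible because the replicate numbers were given in record order and pair no samples; the title number, which does not number replicates, was fitted as a factor. Precision was limited by the spread between mice: standard errors for CKD had a median of 0.122 and reached 0.62 for Angptl4.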
